A study of Mus musculus with 10 samples.

Results

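The 10 genes described here are upstream members of the Hippo pathway: the atypical cadherins Fat1, Fat3 and Fat4, their partner Dchs1, the kinase Fjx1, the angiomotins Amot, Amotl1 and Amotl2, and the kinases Lats1 and Lats2. They were chosen by name, as every row of the expression table that carried 1 of these symbols, and each symbol matched 1 row, so that they make up 10 of the 24011 rows with a gene symbol. In the liver of mice given a VEGF vector, Dchs1, Fat4, Amotl1 and Lats2 were higher than in control mice, by 8.21-, 7.06-, 5.22- and 2.35-fold of the group means. Once the libraries were scaled to a common median ratio, these folds were 7.06, 5.81, 4.1 and 1.83. Lats2 then no longer passed the fold threshold. Lats1 and Fat1, the paralogs of Lats2 and Fat4, measured 1.18 and 1.02 times their control means (0.935 and 0.854 after scaling). Neither passed the test. Amot and Amotl2 lay between these, at 1.83 and 1.54 times (1.47 and 1.19 after scaling). Fat3 and Fjx1 were at or near the limit of detection.

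The Hippo pathway is a kinase cascade that restrains tissue growth. The kinases Stk3 and Stk4 (MST) activate Lats1 and Lats2, which phosphorylate the co-activators YAP and TAZ and keep them out of the nucleus, away from the TEAD transcription factors. Fat and Dachsous are very large cadherins that bind each other between neighbouring cells and, in flies, feed into this cascade, while angiomotins are junctional scaffolds that bind YAP and TAZ and also promote Lats activity. In liver, the pathway is best known for limiting organ size, and in endothelium angiomotins were first described as regulators of cell migration.

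RNA-Seq had been performed on liver tissue from 10 male C57BL/6 mice, aged 8 to 12 weeks, as biological replicates in 2 groups of 5. The AdVEGF group had received an adenovirus (serotype 5) carrying VEGF-A165 behind the CMV promoter, which is active in any cell type the virus enters, and the AdCMV group an empty adenovirus holding only that promoter, both through the tail vein. Livers were taken at day 6 after PBS perfusion, so that both groups carry adenovirus and differ in the transgene. Total RNA had been depleted of ribosomal RNA, and the values are RPKM, reads per kilobase of transcript normalized to the mapped tags of the library. Library totals were recovered from the steps of the RPKM values. They were 5758960 to 13494000 mapped tags in the AdCMV group and 5596560 to 8133950 in the AdVEGF group. Reads summed over the transcript rows exceeded this total in every library, with 10744078 against 9429220 in AdCMV mouse 4. The reason was not tested. Transcripts of the major urinary protein (Mup) genes, which hepatocytes secrete, took 18 to 50.5% of the reads on transcripts in AdCMV and 7.84 to 28.6% in AdVEGF. The 8 hepatocyte markers, among them Alb (albumin), were all measured in every mouse, and Alb was between 5860 and 11200 RPKM in AdCMV. Over the 13933 genes tested, the median log2 fold change (AdVEGF minus AdCMV) was 0.38, and -0.0044 once the libraries had been scaled to a common median ratio. Vegfa, the mouse row of the gene that the vector supplies, had a log2 difference of 0.82 (limma adjusted p = 0.00487) and of 0.42 after scaling; whether transgene reads count towards it is not given in the sources used here. Fold changes of the members tested are therefore given on the deposited scale and after that scaling.

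Promoter sequences are shown for 4 of the genes, to set beside their expression: Lats2 and Amotl2, which hold a TEAD motif, and Fat4 and Amotl1, which were higher in AdVEGF and hold none. Each window runs from 250 bases before to 50 bases after the annotated start, 5′ to 3′ on the strand of the gene, from RefSeq on GRCm38.p6. Capitals mark the TEAD motif, searched as GGAATG and as its reverse complement CATTCC. The Lats2 window is chr14:57746074-57746373 (minus strand), that of Amotl2 chr9:102717554-102717853 (plus), that of Fat4 chr3:38886690-38886989 (plus) and that of Amotl1 chr9:14614951-14615250 (minus).
Lats2: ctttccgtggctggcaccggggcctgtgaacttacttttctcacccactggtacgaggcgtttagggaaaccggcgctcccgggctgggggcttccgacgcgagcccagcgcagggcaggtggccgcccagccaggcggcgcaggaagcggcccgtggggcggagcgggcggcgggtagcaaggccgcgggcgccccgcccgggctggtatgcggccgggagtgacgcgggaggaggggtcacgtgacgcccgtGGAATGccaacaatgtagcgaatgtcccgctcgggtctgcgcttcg
Amotl2: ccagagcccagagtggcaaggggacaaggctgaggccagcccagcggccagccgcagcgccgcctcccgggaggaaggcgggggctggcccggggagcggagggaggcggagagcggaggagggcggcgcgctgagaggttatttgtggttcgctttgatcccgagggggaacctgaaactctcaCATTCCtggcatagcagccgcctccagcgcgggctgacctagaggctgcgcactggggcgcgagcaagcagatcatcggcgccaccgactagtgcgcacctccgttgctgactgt
Fat4: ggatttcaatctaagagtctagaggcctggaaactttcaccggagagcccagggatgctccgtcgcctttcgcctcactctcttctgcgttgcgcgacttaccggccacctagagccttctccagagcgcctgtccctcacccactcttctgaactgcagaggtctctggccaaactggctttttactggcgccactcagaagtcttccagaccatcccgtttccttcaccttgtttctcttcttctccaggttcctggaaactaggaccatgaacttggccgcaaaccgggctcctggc
Amotl1: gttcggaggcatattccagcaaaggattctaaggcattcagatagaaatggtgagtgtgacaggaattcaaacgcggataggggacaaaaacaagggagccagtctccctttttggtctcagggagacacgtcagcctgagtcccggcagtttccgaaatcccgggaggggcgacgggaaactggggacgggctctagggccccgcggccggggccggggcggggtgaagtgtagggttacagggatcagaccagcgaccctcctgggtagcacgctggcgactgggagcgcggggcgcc

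A promoter window was at hand for 8 of the 10 genes, and 3 of the 8 held the motif. The motif began 65 bases before the start in Amotl2, 102 bases before it in Fat1, and at base 5 after it in Lats2, whose other annotated start held none. By comparison, 16.6% of 27025 genes had it in at least 1 window of this length. The windows of Lats1, Fat3, Fat4, Amot and Amotl1 did not contain these letters. Of the 3 genes with the motif, only Lats2 was called higher, and on the deposited scale only. Among the genes without it, Fat4 and Amotl1 were called higher. So few genes cannot show whether the motif and the fold change go together. A match of letters describes the window and shows no binding. Whether the annotated starts are those used in liver was not tested.

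Dchs1 encodes Dachsous 1, the cadherin ligand of Fat4 (RefSeq NM_001162943, chr7:112901503-112936064, minus strand; coordinates of members here and below are those of the deposited table, build mm9). Dchs1 measured 0.208, 0.132, 0.693, 0.16 and 0.784 RPKM in AdCMV mice 1 to 5, and 3.05, 2.34, 3.56, 2.69 and 4.58 RPKM in AdVEGF mice 1 to 5. Every AdVEGF mouse lay above every AdCMV mouse, and AdCMV mice 3 and 5 stood above the other 3 controls. The level was 3.25 ± 0.873 RPKM in AdVEGF and 0.395 ± 0.316 RPKM in AdCMV (SD, n = 5 each), resting on 182 to 328 reads per AdVEGF library and 16 to 58 per AdCMV library. Its log2 fold change was 2.96 ± 0.39 (SE; limma, Benjamini-Hochberg adjusted p = 2.64e-05), which ranked 130 of the 13933 genes tested, and 2.64 ± 0.34 after scaling (limma adjusted p = 0.000125). Because 0.1 was added to each RPKM before the logarithm, fold changes of weakly expressed genes come out too small; voom on the recovered reads gave 3.51. In bulk tissue, a change in the number of cells of a type and a change in RNA per cell cannot be told apart, here and in all results that follow.

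Fat4 encodes the large cadherin that binds Dachsous 1 on the neighbouring cell (NM_183221, chr3:38785862-38910905, plus strand). Fat4 was at 0.146, 0.115, 0.284, 0.099 and 0.281 RPKM in the AdCMV mice and at 1.5, 0.895, 1.38, 0.856 and 1.9 RPKM in the AdVEGF mice. As for Dchs1, the groups did not overlap, and the same controls, mice 3 and 5, were the higher ones. The log2 fold change was 2.30 ± 0.37 (SE; limma adjusted p = 0.000201), rank 361, and 2.01 ± 0.31 after scaling (limma adjusted p = 0.000449). With voom on recovered reads it was 2.93, and with a pseudocount of 1 in place of 0.1 it was 0.94, under the fold threshold; all 5 control values were far below 1 RPKM. Fat4 and Dchs1 entered the test through the AdVEGF group alone, since their AdCMV means were below the filter of 0.5 RPKM.

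Fat1, the other Fat cadherin with a clear level in liver (NM_001081286, chr8:46035562-46137611, plus strand), did not show this pattern. It measured 2.71, 1.74, 5.68, 1.56 and 4.6 RPKM in AdCMV and 3.69, 2.78, 3.01, 2.36 and 4.83 RPKM in AdVEGF. The AdCMV range enclosed all 5 AdVEGF values. Its log2 fold change was 0.16 ± 0.33 (SE; limma adjusted p = 0.734) and became -0.22 ± 0.27 after scaling (limma adjusted p = 0.606), so that the sign depended on the scaling.

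Fat3, a cadherin known mainly from the nervous system (NM_001080814, chr9:15714637-16182675, minus strand), was listed at 0 in all 5 AdCMV mice and in AdVEGF mice 1 to 3, and rested on 2 and 3 reads in AdVEGF mice 4 and 5. A count of 0 allows up to 3 reads, here 0.0121 to 0.0282 RPKM per AdCMV library, and no fold is given. Fjx1, the four-jointed kinase of the Golgi that phosphorylates cadherin domains of Fat and Dachsous (NM_010218, chr2:102289523-102291949, minus strand), was at 0.114, 0.061, 0.209, 0.131 and 0 RPKM in AdCMV and at 0.073, 0.111, 0.221, 0.507 and 0.184 RPKM in AdVEGF. These are 0 to 4 and 1 to 10 reads, and the groups overlapped. Both genes were below the filter; without the filter, the log2 fold change of Fjx1 was 0.61 (limma adjusted p = 0.287), and a difference was not detectable at this depth.

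Among the angiomotins, Amotl1, a scaffold of tight junctions and actin (NM_001081395, chr9:14346411-14419444, minus strand), differed most. It measured 1.25, 1.03, 1.79, 0.95 and 1.92 RPKM in AdCMV and 8.35, 7.35, 7.28, 5.42 and 7.83 RPKM in AdVEGF. The lowest AdVEGF mouse was well above the highest AdCMV mouse. The log2 fold change was 2.34 ± 0.24 (SE; limma adjusted p = 2.13e-06), rank 341, and 1.96 ± 0.17 after scaling (limma adjusted p = 4.5e-06). It rested on 364 to 488 reads per AdVEGF library and 80 to 126 per AdCMV library.

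Amot, the angiomotin first found as a receptor-like partner of angiostatin (NM_153319, chrX:141880967-141922182, minus strand), was at 1.35, 1.83, 3.09, 1.19 and 2.23 RPKM in AdCMV and at 3.97, 3.12, 3.37, 3.08 and 4.15 RPKM in AdVEGF. Only AdCMV mouse 3 reached into the AdVEGF range, and after scaling, by which that mouse moved to 2.51 RPKM, the groups no longer overlapped. Its log2 fold change of 0.90 ± 0.26 (SE; limma adjusted p = 0.0185) stayed under the fold threshold, as did 0.52 ± 0.17 after scaling (limma adjusted p = 0.0456). Without AdCMV mouse 3 it was 1.08 (limma adjusted p = 0.00231) and passed both thresholds.

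Amotl2, the angiomotin that links VE-cadherin to actin in endothelium (NM_019764, chr9:102620134-102635747, plus strand), was the most abundant of the 10 genes in both groups. It measured 5.85, 5.37, 7.83, 4.14 and 6.15 RPKM in AdCMV and 8.05, 8.02, 10.9, 9 and 9.35 RPKM in AdVEGF. The groups were apart on the deposited scale, by a narrow gap, and overlapped after scaling. The log2 fold change was 0.64 ± 0.20 (SE; limma adjusted p = 0.0314) and 0.24 ± 0.12 after scaling (limma adjusted p = 0.185), neither past the fold threshold.

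Lats2, the Lats kinase that is itself a known target of YAP and TAZ (NM_015771, chr14:58308499-58364960, minus strand), measured 1.95, 2.04, 3.23, 1.51 and 2.75 RPKM in AdCMV and 6.15, 4.18, 5.9, 6.24 and 4.53 RPKM in AdVEGF. The groups did not overlap on either scale. Its log2 fold change was 1.23 ± 0.24 (SE; limma adjusted p = 0.00117). After scaling it was 0.84 ± 0.13 (limma adjusted p = 0.000667), which passed the p but not the fold threshold, so that its call depended on the scale.

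Lats1, the second kinase of the pair (NM_010690, chr10:7401007-7436259, plus strand), was at 3.41, 3.54, 6.54, 2.77 and 4.99 RPKM in AdCMV and at 5.09, 4.65, 5.95, 4.38 and 5.03 RPKM in AdVEGF. The AdVEGF values fell inside the AdCMV range in all 5 mice. The log2 fold change was 0.29 ± 0.24 (SE; limma adjusted p = 0.363) and turned to -0.098 ± 0.13 after scaling (limma adjusted p = 0.631).

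**Figure D1:**
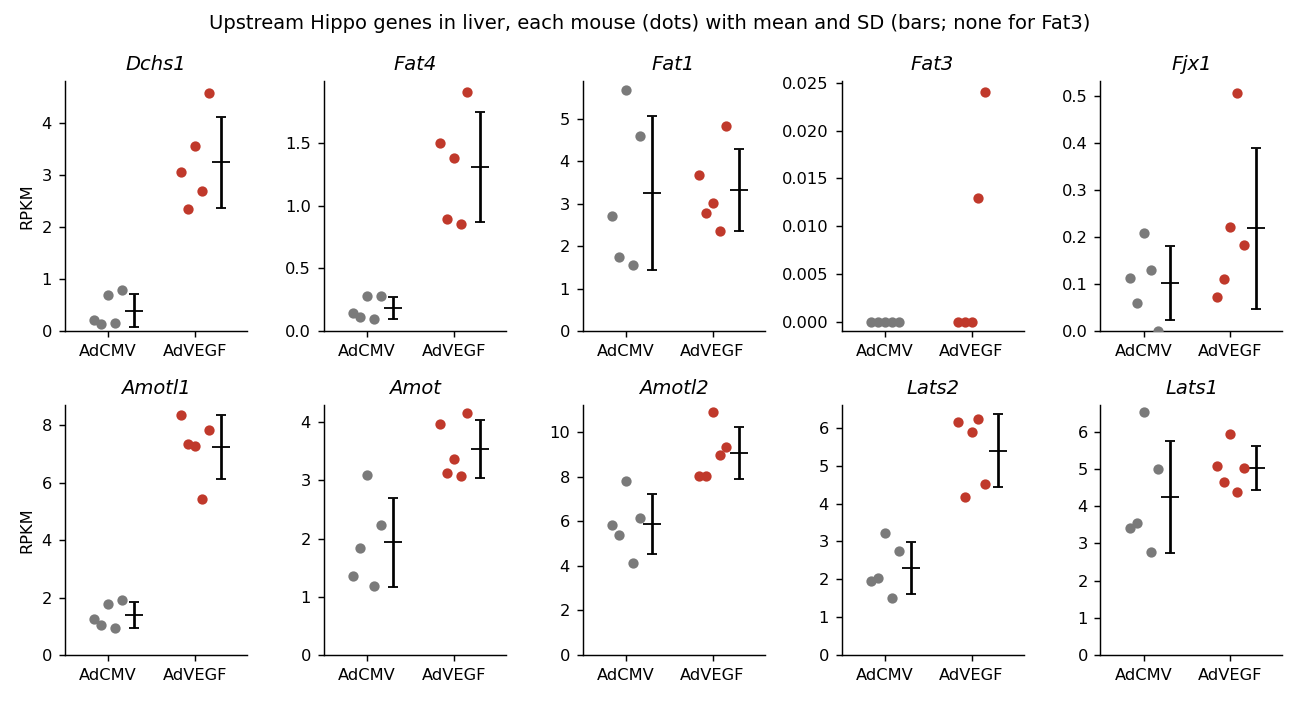
RPKM of the 10 upstream Hippo genes in each AdCMV (grey) and AdVEGF (red) mouse, in a panel per gene with its own axis; the bars beside the dots are the mean and SD of 5 mice, with none for Fat3. Dchs1, Fat4, Amotl1, Amotl2 and Lats2 have no AdVEGF mouse within the range of the AdCMV mice, whereas Fat1 and Lats1 have all 5 AdVEGF mice inside it.

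A gene was called where the adjusted p was under 0.05 and the log2 fold change was over 1 or under -1. By this rule, 4 of the 8 genes tested were called higher, Dchs1, Fat4, Amotl1 and Lats2, and none lower, where 13.0% of all genes tested were called higher and 1.54% lower. After scaling 3 of the 8 were called higher (Dchs1, Fat4 and Amotl1) and none lower, where 7.77% of all genes were called higher and 3.14% lower. At an adjusted p under 0.05 alone, Amot and Amotl2 also passed on the deposited scale, where 24.2% of all genes passed in either direction, and Amot did after scaling, where 23.0% passed. These passes were narrow: Amotl2 kept its own without AdCMV mouse 3 or 5 but not without any of the other 8 mice (limma adjusted p of 0.0501 to 0.0966), and Amot lost its own without AdCMV mouse 1 (limma adjusted p = 0.058). After scaling, Amot kept it without AdCMV mouse 3 or AdVEGF mouse 4 only, with limma adjusted p up to 0.107 without another mouse and 0.102 with the Mup-free total. With all genes above 0 tested, the same number of members, 4, was called higher, beside 10.4% of all genes, and with voom on recovered reads and scaling 3 were, beside 8.15%. In 5 of the 8 genes every AdVEGF value was above every AdCMV value, on the deposited scale and after scaling, but not the same 5: Amotl2 dropped out and Amot came in. Over all genes tested these shares were 14.3% and 10.6%. The median log2 fold change of the 8 genes was 1.06 against 0.38 over all genes, and 0.68 against -0.0044 after scaling. Since Dchs1 and Fat4 passed the filter through the group in which they were higher, these counts and medians only describe the genes tested.

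**Figure D2:**
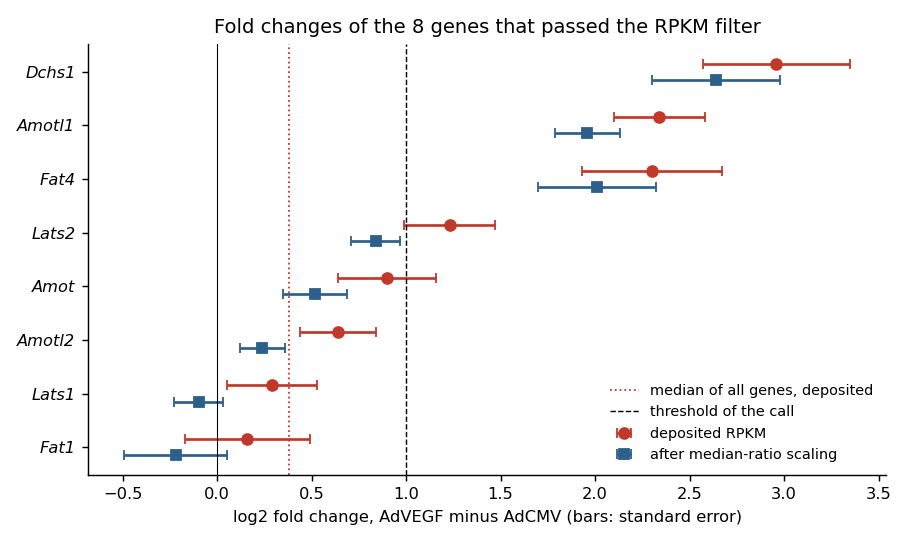
Log2 fold change (AdVEGF minus AdCMV, log2(RPKM + 0.1)) of the 8 genes that passed the filter, from the deposited RPKM (red circles) and after median-ratio scaling (blue squares), with standard errors as bars; the dotted line is the median of all genes on the deposited scale (0.38) and the dashed line the threshold of the call. Scaling moves every gene to the left, takes Lats2 from 1.23 to 0.84 and puts Fat1 and Lats1 below 0.

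Within families, the balance between paralogs differed between the groups. A plain ratio of 2 RPKM values of a library does not depend on how libraries are scaled, and these are the ratios given per mouse. The 4 ratios were compared on log2(RPKM + 0.1), which keeps a slight dependence on the level, and also as plain ratios, a comparison added after the data were seen. The tests were two-sided exact permutation tests, for which 0.00794 is the smallest p that 5 against 5 mice allow. These p-values are not adjusted. Lats2 to Lats1, Amotl1 to Amotl2 and Fat4 to Fat1 each set a gene called higher over a paralog that was not called. The ratios were also chosen with earlier results known, so their p-values describe the ratios and add no separate support to the calls. Lats2 to Lats1 was 0.57, 0.578, 0.495, 0.548 and 0.551 in the AdCMV mice and 1.21, 0.899, 0.991, 1.42 and 0.9 in the AdVEGF mice. All AdVEGF mice were above all AdCMV mice, and the ratio was 1.91-fold higher (log2 difference 0.93, exact permutation p = 0.00794), or 1.95-fold as a plain ratio. Lats2 made up 35.4% ± 1.38 of the summed Lats RPKM in AdCMV and 51.6% ± 5 in AdVEGF (SD, n = 5). The spread of the ratio among controls was narrow. On the deposited scale Lats1 and Lats2 each varied more than 2-fold among the controls. After scaling they ranged only from 4.17 to 5.32 and from 2.28 to 2.76 RPKM.

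For the angiomotins, Amotl1 to Amotl2 was 0.214, 0.191, 0.228, 0.23 and 0.313 in AdCMV and 1.04, 0.917, 0.67, 0.602 and 0.838 in AdVEGF. The groups were apart, with a 3.25-fold higher ratio in AdVEGF (log2 difference 1.70, exact permutation p = 0.00794), or 3.43-fold as a plain ratio. Amotl1 went from 15% ± 2.28 to 36.5% ± 4.13 of the summed angiomotin RPKM, Amotl2 from 64.3% ± 3.73 to 45.7% ± 5.07, and Amot from 20.6% ± 3.21 to 17.8% ± 1.66. The summed level of the family, after scaling, was 10.2 ± 0.48 RPKM in AdCMV and 17.2 ± 2.52 RPKM in AdVEGF.

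For the Fat cadherins, Fat4 to Fat1 was 0.0538, 0.0661, 0.05, 0.0634 and 0.061 in AdCMV and 0.407, 0.322, 0.457, 0.363 and 0.393 in AdVEGF. The groups did not overlap, but the size of the difference depended on the pseudocount, since the control levels of Fat4 are close to 0.1 RPKM. It was 4.41-fold with 0.1 added (log2 difference 2.14, exact permutation p = 0.00794) and 6.6-fold as a plain ratio (log2 difference 2.72, exact permutation p = 0.00794), with log2 differences of 0.84 at a pseudocount of 1, 2.64 at 0.01 and 2.67 on recovered reads. Fat1 nevertheless remained the larger part, with 94.4% ± 0.603 of the summed Fat RPKM in AdCMV and 72% ± 2.59 in AdVEGF. The Dchs1 to Fat4 ratio, of a ligand to its receptor, was 1.57-fold higher in AdVEGF (log2 difference 0.65, exact permutation p = 0.0317), but the groups overlapped and the p rose to 0.111 as a plain ratio (1.42-fold), to 0.0952 with a pseudocount of 0.01 and to 0.103 on recovered reads. It also rose to 0.0635 without any 1 of AdCMV mice 1, 2 and 4 or AdVEGF mice 2, 3 and 4.

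**Figure D3:**
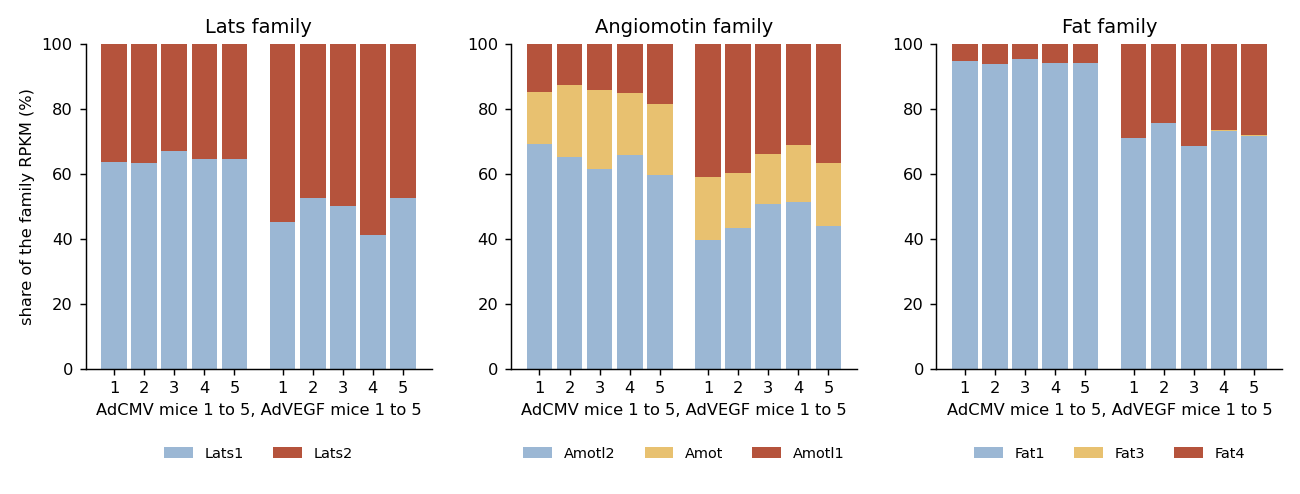
Share (%) of the summed RPKM of the Lats, angiomotin and Fat families that each gene took in each mouse, stacked to 100%, with AdCMV mice 1 to 5 on the left and AdVEGF mice 1 to 5 on the right of each panel. The dark red parts, Lats2, Amotl1 and Fat4, are larger in every AdVEGF mouse than in any AdCMV mouse, with means of 51.6%, 36.5% and 27.9% against 35.4%, 15% and 5.55%.

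RPKM is per length, so levels can also be set side by side between genes. In AdCMV the order of the mean RPKM was Amotl2, Lats1, Fat1, Lats2, Amot, Amotl1, Dchs1, Fat4, Fjx1 and Fat3, from 5.87 RPKM for Amotl2 to 0 for Fat3. The ranges of neighbours overlapped except between Amotl1 and Dchs1, but within a mouse Amotl2 was above Lats1, Lats2 above Amot and Amot above Amotl1 in 5 of 5 controls. In AdVEGF the order was Amotl2, Amotl1, Lats2, Lats1, Amot, Fat1, Dchs1, Fat4, Fjx1 and Fat3, with Amotl1 up from place 6 to place 2. Here the ranges were apart between Lats1 and Amot, and at each step from Dchs1 down to Fat3, while Lats2 was above Lats1 in only 2 of 5 mice and Amot, Fat1 and Dchs1 overlapped.

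After scaling, AdVEGF mouse 5 was the highest of its group for Fat1, Fat4, Dchs1, Amot, Amotl1, Amotl2 and Lats1. It was also the highest for Fat3, on 3 reads against 2 in mouse 4. The scaled RPKM of AdVEGF mouse 5 was 4.57 for Dchs1, where the next mouse had 2.84, and 4.82 for Fat1, where the next had 3.16. Its scaling factor was 1, where the other AdVEGF mice had 1.17 to 1.25. On the deposited scale Amotl1 was highest in AdVEGF mouse 1 (8.35 against 7.83 RPKM in mouse 5). Amotl2 (10.9 against 9.35 RPKM) and Lats1 (5.95 against 5.03 RPKM) were highest in AdVEGF mouse 3. The share of all genes highest in a given mouse was not counted for either group. Such places therefore do not set these genes apart from other genes of the same library. Among the controls, mouse 5 was the highest for 4 and mouse 3 for 3 of the 9 genes above 0. Leaving out AdVEGF mouse 5 or any other mouse in turn kept Dchs1, Fat4, Amotl1 and Lats2 past both thresholds on the deposited scale, with log2 fold changes from 2.74 to 3.23, from 2.16 to 2.43, from 2.23 to 2.46 and from 1.10 to 1.36.

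Markers of several liver cell types were also higher in AdVEGF. Of 17 pan-endothelial markers 16 were called higher, also after scaling, Vwf being the exception, and their summed RPKM was 44.9 to 88.3 in AdCMV and 413 to 507 in AdVEGF. All 8 sinusoidal endothelial markers (7 after scaling) and 9 of 10 stellate cell markers (8 after scaling) were called higher, with sums of 54.4 to 94.7 against 198 to 283 RPKM and of 35.7 to 56.6 against 96.5 to 161 RPKM. Of 8 portal fibroblast and smooth muscle markers 5 were called higher (4 after scaling), with sums of 14.3 to 31.2 against 63.4 to 215 RPKM. Of 8 Kupffer cell markers 3 were called higher (2 after scaling; sums of 92.3 to 202 against 206 to 309 RPKM), and of 6 cholangiocyte markers tested only Spp1, a gene that other cells also express, was (sums over all 8 listed of 26.2 to 55.8 against 284 to 728 RPKM). Of 8 hepatocyte markers 2, Alb and Apoa1, were called higher on the deposited scale and none after scaling, and no mesothelial marker passed the filter, with sums of at most 0.687 RPKM in AdCMV and 1.26 RPKM in AdVEGF. None of these markers was at 0 in all mice. The part of these cell types, endothelium included, in the values of the upstream Hippo genes was not tested.

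Each gene was set against the mean log2 level of the 17 pan-endothelial markers in the same library. Two-sided exact permutation tests compared 5 against 5 mice. Relative to these markers, 7 of the 8 genes tested were lower in AdVEGF than in AdCMV. The markers themselves had a median log2 fold change of 2.75, beside 0.38 over all genes tested. A gene that did not change would therefore also come out lower, and these differences do not show a fall of the gene itself. The log2 difference was -2.69 for Fat1, -2.55 for Lats1, -2.21 for Amotl2, -1.95 for Amot, -1.62 for Lats2 and -0.51 for Amotl1, each without overlap of the groups (exact permutation p = 0.00794, not adjusted over the 8 genes compared). The result for Amotl1 depended on the reference: its log2 fold change of 2.34 was below the mean of these markers, which holds Cd34 at 5.84 and Emcn at 5.33, but above that of Tek (1.43). Against the mean of the 8 sinusoidal markers, a reference added after the data were seen, Amotl1 was higher in AdVEGF by 0.61 (exact permutation p = 0.0159), Fat4 by 0.57 (exact permutation p = 0.0397) and Dchs1 by 1.22 (exact permutation p = 0.00794). The other 5 genes were lower against that reference too, by log2 differences from -1.57 for Fat1 to -0.51 for Lats2 (exact permutation p = 0.00794 each). Against the pan-endothelial markers, the difference for Fat4 was -0.55 (exact permutation p = 0.0397) with overlapping groups, and the p rose to 0.667 with a pseudocount of 0.01, to 0.825 on recovered reads and to 0.111 against the summed RPKM of the markers. It also rose to between 0.0635 and 0.0794 without any 1 mouse other than AdVEGF mouse 5. Dchs1 showed a difference of 0.11 (exact permutation p = 0.683), between -2.28 ± 0.38 in AdVEGF and -2.39 ± 0.55 in AdCMV (log2, SD, n = 5). Its sign turned without AdCMV mouse 2 (-0.06) and without AdVEGF mouse 5 (-0.034), and with a pseudocount of 1 (-0.74, exact permutation p = 0.00794).

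**Figure D4:**
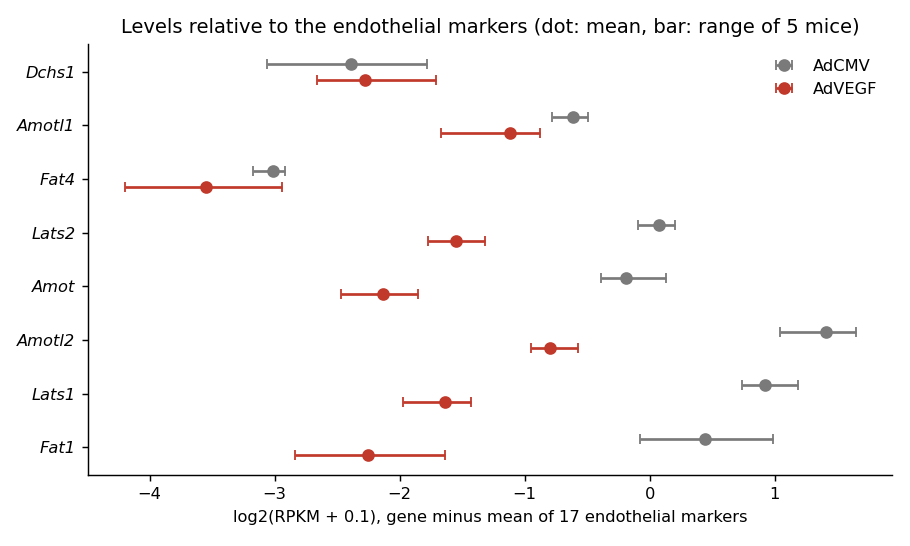
Level of each gene relative to the mean of 17 endothelial markers in the same library (log2(RPKM + 0.1), gene minus markers), with the mean of 5 mice as a dot and their range as a bar, for AdCMV (grey) and AdVEGF (red). The ranges of Dchs1 and Fat4 overlap between the groups. The other 6 genes lie lower relative to these markers in AdVEGF, from -0.51 for Amotl1 to -2.69 for Fat1. Against sinusoidal markers, not plotted, Amotl1 and Fat4 were higher in AdVEGF.

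The rest of the pathway was read from lists of genes in the same fit. Their counts are to be set beside the 13.0% of all genes called higher on the deposited scale and the 7.77% after scaling. The upstream members were left out of these lists, so Lats2, itself a known target of YAP and TAZ, is not among the target genes. Ptpn14 stands in both the scaffold and the target list. Among the Fat and Dachsous relatives, 2 of 5 genes tested were called higher. They were Lix1l, a relative of Lix1 (log2 fold change 1.80, 1.42 after scaling), and Vangl2, a planar polarity protein (1.86, 1.58 after scaling). This count of 2 was 1 with a pseudocount of 1 or a filter of 1 RPKM, and 0 with limma's treat. Treat asks whether the change itself exceeds the fold threshold. Over all genes, those called higher went from 1808 to 954, 1596 and 503 under these alternatives. Celsr1, a cadherin of planar polarity, was called lower after scaling (-1.19, limma adjusted p = 0.0154) but not on the deposited scale (-0.84, limma adjusted p = 0.0836). Fat2 was at 0 in every mouse, and Dchs2 was not analysed here.

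Of 17 genes of the core kinase cassette, 2 were called higher and none lower on both scales: Map4k4 (2.01, 1.62 after scaling) and Tnik (2.12, 1.82 after scaling), kinases of the MAP4K group that can phosphorylate Lats in parallel to MST. That is close to the share of all genes called higher, 13.0% on the deposited scale and 7.77% after scaling. The MST kinases and their adaptors were not called: as log2 fold changes, Stk3 measured 0.72 (0.32 after scaling), Stk4 0.22 (-0.17), the scaffold Sav1 0.75 (0.36), and the Lats co-activators Mob1a 0.56 (0.16) and Mob1b -0.054 (-0.45). The count for this list rose to 5 without AdCMV mouse 3, to 5 without AdCMV mouse 5 and to 4 without AdVEGF mouse 2. It was 1 with treat. Over all genes, those called higher went from 1808 to 2357, 2041 and 1675 without these mice, and to 503 with treat.

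Of 19 scaffold, junction and polarity genes tested, 5 were called higher and none lower, beside 13.0% of all genes, and 3 after scaling, beside 7.77%; with a pseudocount of 1 there were 2, and with treat 0. The 3 after scaling were Ptpn14, a phosphatase that binds YAP (2.25, 1.95 after scaling), Wtip, an Ajuba family LIM protein (2.02, 1.66), and Tjp1, the tight junction protein ZO-1 (1.53, 1.13). Frmd6 (1.08, 0.70 after scaling) and Wwc2 (1.13, 0.74), partners of NF2 in activating the cascade, lost their call on scaling. Without AdCMV mouse 1 the deposited count was likewise 3, where 1572 of all genes were called higher, beside 1808 with every mouse. Nf2 itself was at 0.61 (log2 fold change, limma adjusted p = 0.0795) and at 0.22 after scaling.

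Downstream of Lats, 2 of 6 effectors were called higher, Wwtr1, which encodes TAZ (1.82, 1.42 after scaling), and Tead2 (3.49, 3.16 after scaling). Yap1 measured 0.31 (log2 fold change, limma adjusted p = 0.298), and -0.092 after scaling. Of 20 YAP and TAZ target genes tested, 7 were called higher on both scales and none lower: Igfbp3 (3.33, 2.95 after scaling), Tgfb2 (2.35, 2.05), Ptpn14 (2.25, 1.95), Ccdc80 (2.20, 1.80), Ctgf (2.14, 1.77), Arhgef17 (1.89, 1.56) and Rbms3 (1.41, 1.02). With treat the count was 2. Other well-known targets did not pass, with Cyr61 at 0.97 (0.58 after scaling), Ankrd1 at 1.16 (0.86; limma adjusted p = 0.119 before scaling) and Areg at 0.013 (-0.26). After scaling the list medians were 0.45 for the Fat and Dachsous relatives, 0.16 for the core kinases and 0.42 for the scaffolds. They were 0.44 for the effectors and 0.47 for the targets, beside -0.0044 for all genes. The median of the upstream genes described here was 0.68. It includes Dchs1 and Fat4, which passed the filter through the AdVEGF group alone, so it only describes the genes tested.

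**Figure D5:**
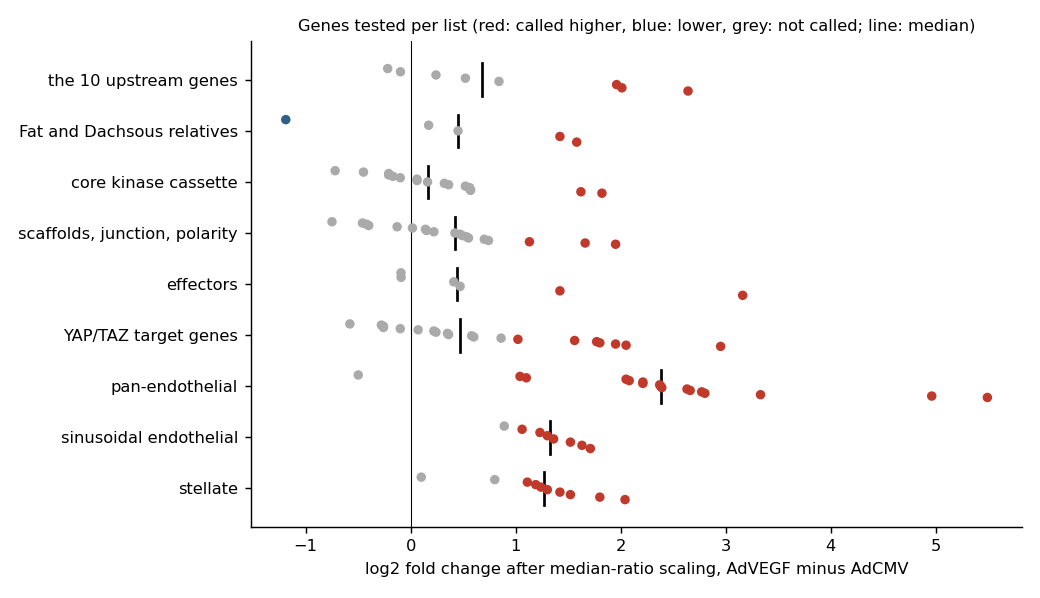
Log2 fold change after median-ratio scaling (AdVEGF minus AdCMV) of each gene tested, by list, with called genes in red (higher) or blue (lower), others in grey, and the median of the list as a black line. The upstream genes spread from -0.22 (Fat1) to 2.64 (Dchs1), with a median of 0.68. Dchs1 and Fat4 passed the filter through the AdVEGF group alone, so this median only describes the genes tested and ranks no list. Medians were 0.16 to 0.47 for the other pathway lists and 1.27 to 2.38 for the endothelial and stellate marker lists.

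The genes with the most similar profiles over the 10 mice were found for Fat4, Dchs1, Amotl2 and Lats2, by the root mean square difference of centred log2 scaled values. As the nearest of all genes tested, they lie below the median distance by selection. The values were centred over both groups together, so a like difference between the groups also makes profiles similar. For Fat4 these were Dysf (0.173), Pcdh12 (0.19) and Pcdhgc3 (0.21), where the median over all genes was 1.13. For Dchs1 they were Gm16897 (0.203), Zfp57 (0.257) and Lamc1 (0.275), against a median of 1.47. Amotl2 was nearest to Lemd2 (0.1), Nisch (0.111) and Ppp2r1a (0.119), against 0.401, and Lats2 to Clic1 (0.0981), Wipf1 (0.106) and Slc39a10 (0.111), against 0.571. Pcdh12 is an endothelial protocadherin and Lamc1 a laminin chain of basement membranes. The nearest genes of Amotl2 had scaled log2 fold changes of 0.17 to 0.31, near its own, as the choice by similar profile favours.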

How the data were processed

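Liver RNA of 10 mice, 5 per group, had been sequenced, mapped with TopHat 2.0.7 to mm9 and quantified with HOMER, as named in the paper and the submitters' processing notes; whether counting used strand is not given in the sources used here. The authors deposited RPKM values for 24016 transcript rows per mouse, normalized to the library total only. The deposited table also holds the authors' own log2 fold change and FDR (adjusted p-value) columns, which were not used. Of these rows 5 carried no symbol and were left out (at most 0.00556% of a library's tags). Reads behind each RPKM were recovered from its steps; at least 99.992% of the values of each library were whole within 0.1 reads.

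limma 3.58.1 in R 4.3.3 (lmFit, eBayes with a trend) was fitted to log2(RPKM + 0.1) for the 13933 genes whose mean in either group exceeded 0.5 RPKM, and p-values were adjusted over all of them by Benjamini and Hochberg's method. Samples were grouped by their labels. Ratios and levels relative to endothelial markers were compared on log2(RPKM + 0.1) by exact permutation in Python 3.11.15. Median-ratio scaling, other pseudocounts, filters, library totals, voom, treat, 1 row per symbol, the replicate block and leaving out each mouse were tried as alternatives; the block with scaling, leaving out mice with scaling, plain ratios and the sinusoidal markers as reference were added after the data were seen. The fit was tested on simulated data.

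The members, lists and tests were chosen with earlier results of these data known. Named genes are the 10 members, list genes that were called or are partners of a member, and the 3 nearest profiles. Libraries of 1 group differed by at least 11.7 times the counting variance, so none was a repeat. Recovered depth ranged from 5596560 to 13494000 mapped tags. Limits of 3 reads cover counting error only.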

Additional observations from a re-analysis of the deposited data

Results flagged for a closer look

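The level of Fat4 relative to the pan-endothelial markers in AdCMV mouse 2, at -3.17 on the log2 scale, stood apart from the other 4 controls, whose range reached up to -2.92. Its gap to the nearest control was 0.711 of the range of the group, just above Dixon's critical value of 0.71 for 5 samples. It was the only 1 of 64 groups of values tested to do so, where chance alone flags about 5%.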

How the results depend on the processing

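Genes called higher and lower numbered 1808 and 214 on the deposited scale. They numbered 1082 and 438 with median-ratio scaling, 1125 and 393 with upper quartile scaling, 985 and 558 with the library total taken without the Mup genes, 1135 and 477 with voom and scaling, and 503 and 36 with treat; a pseudocount of 1 gave 954 higher. Leaving out each mouse gave 1425 to 2357 higher. The 4 called members became 2 with a pseudocount of 1 (Dchs1 and Amotl1), and were 4 or 5 without any mouse. Dchs1 and Amotl1 kept their calls under all 34 alternatives.

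The log2 fold change of Fat1 reversed with the Mup-free total (-0.32), median-ratio (-0.22) and upper quartile scaling (-0.18), voom with scaling (-0.23) and the block with scaling (-0.22). It ranged from -0.41 to -0.099 without each mouse after scaling, and from -0.048 to 0.40 without each mouse on the deposited scale. That of Lats1 reversed under the same scalings (-0.20, -0.098, -0.054, -0.11 and -0.098) and ranged from -0.15 to -0.037 without each mouse after scaling, beside 0.16 to 0.46 on the deposited scale. Neither passed the test under any of these. The median of all genes moved from 0.38 to -0.0044 under scaling.

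The Dchs1 to Fat4 difference was 0.53 with a pseudocount of 0.01, 0.51 on recovered reads, 0.51 as a plain ratio and 0.53 to 0.80 without each mouse. Relative to endothelial markers, Fat4 was at -0.12, -0.064 and, against summed RPKM, -0.46, and at -0.70 to -0.38 without each mouse. With the mean of the sinusoidal markers as reference, Fat4 (0.57) and Amotl1 (0.61) reversed and Dchs1 reached 1.22. Dchs1 reversed at a pseudocount of 1 (-0.74) and ranged from -0.06 to 0.26 without each mouse. The causes were not tested.

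Mice with the same replicate number correlated at only 0.00968 to 0.294 and only mouse 5 best matched its own number, so the number was not taken to pair mice. With it as a replicate block, limma called 1933 genes higher, 256 lower and the same number of members, 4. In the permutation test, 5 pairs cannot go below p = 0.0625, so no ratio (0.93, 2.14, 0.65, 1.70) and no level relative to the markers (-2.69, -0.55, -1.95, -0.51, -2.21, -2.55, -1.62) could pass under the replicate block; this says nothing on stability. Depth limits Fat3 and Fjx1, with at most 3 and 10 reads in a library.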
